A study of Mus musculus with 49 samples.

Results

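GATA6 was added to SKM, the reprogramming factors SOX2, KLF4 and MYC, in mouse fibroblasts, and the cells were set against fibroblasts that received SKM with an empty vector (EV). The comparison holds 4 of the 49 arrays of the series, 2 of GATA6+SKM and 2 of EV+SKM, chosen by their titles, and it was read over all genes. The series screened for factors that could stand in for the usual reprogramming genes, and these arrays belong to its search for substitutes of OCT4. The fibroblasts (MEF) were from female OGXICR mice with the age given as D13.5, and were isolated from skin of the limbs and tails after the epidermis had been taken off. All groups shared this origin and a doxycycline-inducible lentiviral system. The time between infection and harvest is not given in the sources used here. Total RNA was labelled with Cy5 and read on 1-colour arrays, 1 sample per array. The same arm of the series held 23 arrays. It had 2 of GATA6+SKM, 3 of GATA4+SKM, 2 each of SOX7, PAX1, OCT4, CEBPa, HNF4a, GRB2 and MIXL1 with SKM, 2 of EV+SKM, and 2 of MEF1 EV, fibroblasts with the empty vector and no SKM. Nothing says that the 2 arrays of a group came from separate infections. Every p-value and SE below thus measures only the spread between arrays of a group, which may be technical. This spread was pooled over all 23 arrays, and the groups differed in it. Between their arrays, 133 genes in GATA6+SKM and 161 in EV+SKM lay over 2-fold apart, against 11 in HNF4a+SKM and 292 in MEF1 EV.

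GATA6 is a zinc-finger transcription factor that binds the GATA motif in DNA and works with cofactors of the FOG family. In the early mouse embryo it is needed for primitive endoderm, and forcing it on in mouse embryonic stem cells turns on extraembryonic endoderm genes. Together with its relative GATA4 it also acts in the developing heart and gut, where cardiac troponin genes are among the genes that GATA factors bind.

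In the cells with GATA6, genes of the troponin complex, the endoderm regulator Sox17, the GATA cofactor Zfpm1 and the surface proteins Ptprb and Podxl stood far above the cells with the empty vector. Most measured genes of the interferon response were also higher. Genes of the fibroblast matrix, of inflammation and of the cornified layer of skin were lower. Of 6 other measured endoderm regulators Foxa3 rose and Prdm1 and Klf6 fell, and none of 9 measured mesendoderm genes passed the test.

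The promoters of 4 of the genes with the largest rises are shown because GATA6 binds a short motif that can be looked for in them. Each run covers the 250 bases before the gene's start on its own strand, from RefSeq on mouse build GRCm38.p6, and capitals mark a GATA motif, searched on either strand as AGATAA, the variant AGATAG, the variant TGATAA or the variant TGATAG. All 4 genes lie on the plus strand. Nav2 and Tnnt2 had 2 listed promoters each, and only that nearest the annotated gene start is shown. Nav2 is at chr7:48958823-48959072, Akap5 at chr12:76324641-76324890, Tnnt2 at chr1:135836084-135836333 and Serpinb6b at chr13:32965011-32965260.
Nav2: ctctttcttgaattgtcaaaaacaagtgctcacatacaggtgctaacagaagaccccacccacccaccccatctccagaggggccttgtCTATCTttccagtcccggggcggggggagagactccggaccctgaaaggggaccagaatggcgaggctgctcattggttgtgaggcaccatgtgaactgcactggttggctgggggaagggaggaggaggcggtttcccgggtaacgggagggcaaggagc
Akap5: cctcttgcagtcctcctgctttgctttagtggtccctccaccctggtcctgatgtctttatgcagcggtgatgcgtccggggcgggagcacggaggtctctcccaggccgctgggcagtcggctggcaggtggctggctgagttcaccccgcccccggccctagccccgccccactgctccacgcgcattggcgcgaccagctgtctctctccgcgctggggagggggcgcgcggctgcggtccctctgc
Tnnt2: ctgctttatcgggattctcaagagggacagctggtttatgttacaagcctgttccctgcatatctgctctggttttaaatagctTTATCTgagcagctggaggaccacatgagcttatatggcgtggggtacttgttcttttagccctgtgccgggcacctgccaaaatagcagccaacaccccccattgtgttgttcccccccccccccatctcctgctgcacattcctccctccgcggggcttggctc
Serpinb6b: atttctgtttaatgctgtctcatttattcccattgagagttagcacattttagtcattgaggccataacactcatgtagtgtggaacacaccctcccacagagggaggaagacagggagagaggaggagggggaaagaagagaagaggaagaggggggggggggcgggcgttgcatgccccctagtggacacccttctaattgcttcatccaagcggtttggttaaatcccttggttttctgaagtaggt

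The window of Nav2 held CTATCT, a match on the other strand that ended 156 bases before the start, and the window of Tnnt2, the gene of cardiac troponin T, held TTATCT, which ended 161 bases before it. The windows of Akap5 and Serpinb6b held none of these letters. The rise of Nav2 is in doubt, since its second probe differed by only 0.04 on the log2 scale. Its brightest probe was also high with SOX7, PAX1 and MIXL1, as given below. A match is a description of the sequence and not a binding site. Of the 8150 tested genes with a promoter in the table, 1476 (18.1%) held at least 1 match, against 8718 of all 32851 promoters of the table (26.5%). Among tested genes at least 2-fold higher with GATA6 and past the test the share was 81 of 396 (20.5%), and among those at least 2-fold lower it was 56 of 305 (18.4%). Both shares lay close to that over all tested genes. Of the 15 largest rises 11 had a promoter in the table, and 5 of these (45.5%) held a match, a small set chosen by its values, for which no test was made.

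The probes for the factors came first, since they could check the labels. The single Gata6 probe read 1948 and 1668 intensity units in GATA6+SKM, against 2361 and 2336 in EV+SKM and 5407 and 5837 in MEF1 EV. It was thus lower with GATA6 than with the empty vector, by 0.38 on the log2 scale (adjusted p = 0.0132, limma). The position of this probe relative to the introduced sequence is not known here, so it does not tell whether the vector was expressed. The Klf4 probe read 1773 and 1593 in GATA6+SKM and 1663 and 1723 in EV+SKM. The Sox2 probe had no value in this arm, and no probe was named for Myc.

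Fold changes below are differences of log2(intensity + 32), which understates the change of dim genes. Tests were made with limma over 10108 genes, and an adjusted p (Benjamini-Hochberg) under 0.05 counts as passing. With GATA6, 3528 genes passed (34.9%), 1751 higher (17.3%) and 1777 lower (17.6%). Of these, 512 genes were at least 2-fold higher (5.07%) and 418 at least 2-fold lower (4.14%). The median change over all genes was -0.03. Both GATA6+SKM arrays lay above both EV+SKM arrays for 3039 genes (30.1%) and below them for 3501 genes (34.6%). The count of calls depended on single arrays: without GATA6+SKM replicate 2 it was 2248, and without EV+SKM replicate 1 it was 2334. Fitted on the 4 arrays alone it was 1662.

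**Figure D1:**
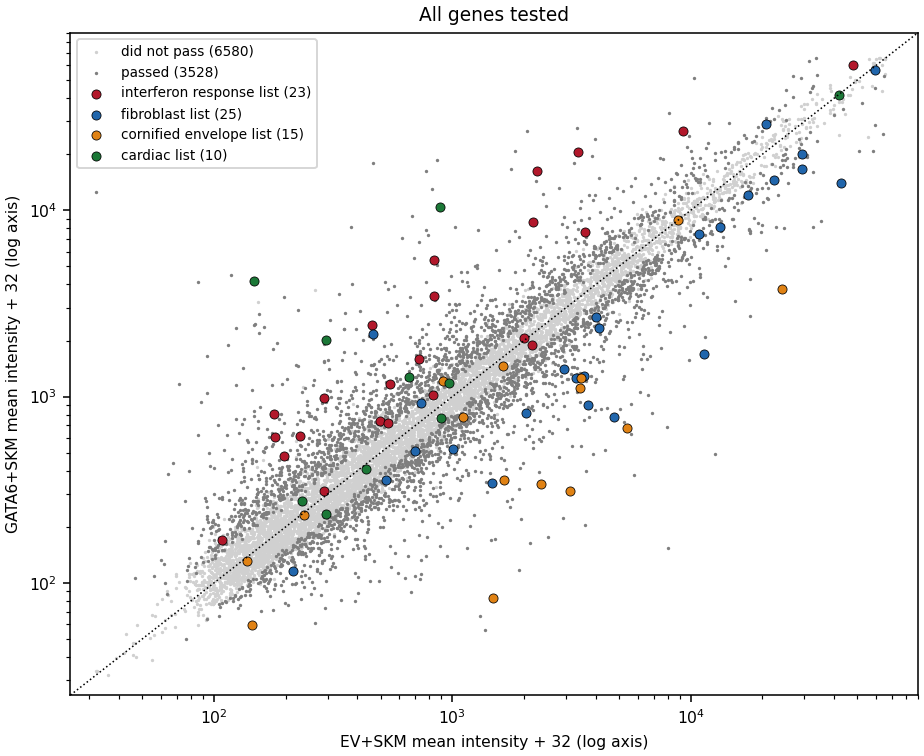
Each point is 1 of 10108 genes. The horizontal axis is the mean intensity + 32 in EV+SKM and the vertical axis the mean in GATA6+SKM (log axes, 2 arrays each), and genes on the diagonal had the same level. Dark grey marks the 3528 genes that passed the test, and colours mark 23 interferon, 25 fibroblast, 15 cornified layer and 10 cardiac genes. Interferon genes sit mostly on or above the diagonal, cornified layer and fibroblast genes mostly below it.

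The genes with the largest rises and falls were chosen among those whose arrays did not overlap between the groups, so their separation is given by the choice. Ptprb, a receptor tyrosine phosphatase of endothelial cells, read 4248 and 3887 in GATA6+SKM, against 59.4 and 47.5 in EV+SKM. Both GATA6+SKM arrays were high and both EV+SKM arrays near the bottom of the scale, a log2 change of 5.59 ± 0.16 (SE, n = 2 each, limma adjusted p = 5.47e-14). Its second probe gave 2639 and 2786 in GATA6+SKM and 29.2 and 42.9 in EV+SKM, a difference of the same order. Podxl, the sialomucin podocalyxin, read 16651 and 18949 in GATA6+SKM, against 468 and 396 in EV+SKM, a log2 change of 5.27 ± 0.15 (SE, limma adjusted p = 5.86e-14). Tnnt2 read 4430 and 3822 in GATA6+SKM and 131 and 101 in EV+SKM, with a log2 change of 4.82 ± 0.16 (SE, limma adjusted p = 3.22e-13). Sox17, an HMG-box factor needed for definitive endoderm, was near the bottom of the scale in the empty vector cells. It read 1125 and 1162 in GATA6+SKM, against 44.0 and 34.4 in EV+SKM, and its log2 change was 4.05 ± 0.18 (SE, limma adjusted p = 1.31e-11).

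Other genes with large rises had more varied roles. Serpinb6b, a serine protease inhibitor, read 17217 and 19762 in GATA6+SKM and 612 and 1043 in EV+SKM. Gcnt1, an enzyme that branches O-glycans, read 15361 and 17217 in GATA6+SKM, against 732 and 752 in EV+SKM. Gmps, which makes GMP, read 12174 and 13812 in GATA6+SKM and 584 and 998 in EV+SKM. Each of these 3 genes was bright on both GATA6+SKM arrays, with log2 changes of 4.47, 4.40 and 4.03. The remaining members of the 15 largest rises were Gipc2 (a PDZ-domain adaptor), 0610040J01Rik, Tmem79 (a membrane protein of the skin barrier), Cst9 (of the cystatin family), Acss1 (a mitochondrial acetyl-CoA synthetase) and Clca2 (a chloride channel accessory protein). Their log2 changes lay between 4.08 and 4.44, and each passed the test.

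Probes disagreed for 2 of the genes ranked highest. Nav2, a cytoskeletal protein of neurite outgrowth, had the largest computed change, since its brightest probe read 11969 and 12937 in GATA6+SKM and was at the floor in EV+SKM, with values of 0.00565 and 0.0087. No fold is given against such a floor. Its second probe read 265 and 336 in GATA6+SKM and 298 and 279 in EV+SKM, a log2 difference of 0.04. Akap5, a scaffold that anchors protein kinase A, read 4508 and 4445 in GATA6+SKM and 73.5 and 99.1 in EV+SKM on its brightest probe, a log2 change of 5.26. Its second probe was dim, with 104 and 125 in GATA6+SKM and 9.35 and 5.78 in EV+SKM, a log2 difference of 1.89. Both probes of Akap5 were thus higher with GATA6, and for Nav2 the 2 probes differ in whether there is a change at all.

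The falls were as wide. Hp, the haemoglobin-binding plasma protein haptoglobin, read 87.7 and 156 in GATA6+SKM, against 7420 and 8599 in EV+SKM, a log2 change of -5.74 ± 0.28 (SE, n = 2 each, limma adjusted p = 4.65e-11). Agtr2, the angiotensin II type 2 receptor of fetal mesenchyme, read 428 and 487 in GATA6+SKM and 12152 and 13009 in EV+SKM, a log2 change of -4.69 ± 0.11 (SE, limma adjusted p = 7.79e-15). Both genes were bright on both EV+SKM arrays. Egfl6, a secreted protein with EGF-like domains, read 43.2 and 26.3 in GATA6+SKM and 1242 and 1299 in EV+SKM. Mmp3, the matrix protease stromelysin, read 89.7 and 79.8 in GATA6+SKM and 2051 and 1708 in EV+SKM. Both stood near the dim end with GATA6 and well above it with the empty vector, with log2 changes of -4.30 and -4.03. Slpi, a secreted inhibitor of leukocyte proteases, read 164 and 179 in GATA6+SKM and 3739 and 3421 in EV+SKM. Abi3bp, a matrix protein, read 97.7 and 167 in GATA6+SKM and 1802 and 2370 in EV+SKM on its brighter probe, and its second probe was lower too, by 2.95 on the log2 scale.

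Genes of the stratified epidermis made up 5 of the 15 largest falls. Sprr1b, a cross-linked protein of the cornified envelope, read 45.2 and 57.5 in GATA6+SKM, against 1306 and 1596 in EV+SKM. Kprp, a proline-rich keratinocyte protein, read 306 and 394 in GATA6+SKM and 5956 and 5566 in EV+SKM. The stress keratin Krt6b read 166 and 121 in GATA6+SKM and 2581 and 2371 in EV+SKM. The higher values were those of EV+SKM, with log2 changes of -4.15, -3.93 and -3.85, and Sprr2d and Cnfn of the same layer fell by 3.70 and 3.32.

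Replicates lay far apart for 2 members of this set. Cited1, a transcriptional coregulator, read 29.3 and 17.9 in GATA6+SKM, and 2328 and 341 in EV+SKM. Its fall of 4.08 on the log2 scale passed the test (limma adjusted p = 0.0109), but not without GATA6+SKM replicate 2 (adjusted p = 0.0626) or without EV+SKM replicate 1 (adjusted p = 0.16). Trib2, a pseudokinase, read 801 and 166 in GATA6+SKM against 4602 and 4043 in EV+SKM, so the wider spread lay within the GATA6+SKM arrays. Ptx3, a soluble pattern recognition protein, and Steap4, a metalloreductase, completed the 15, with log2 changes of -3.50 and -3.18.

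**Figure D2:**
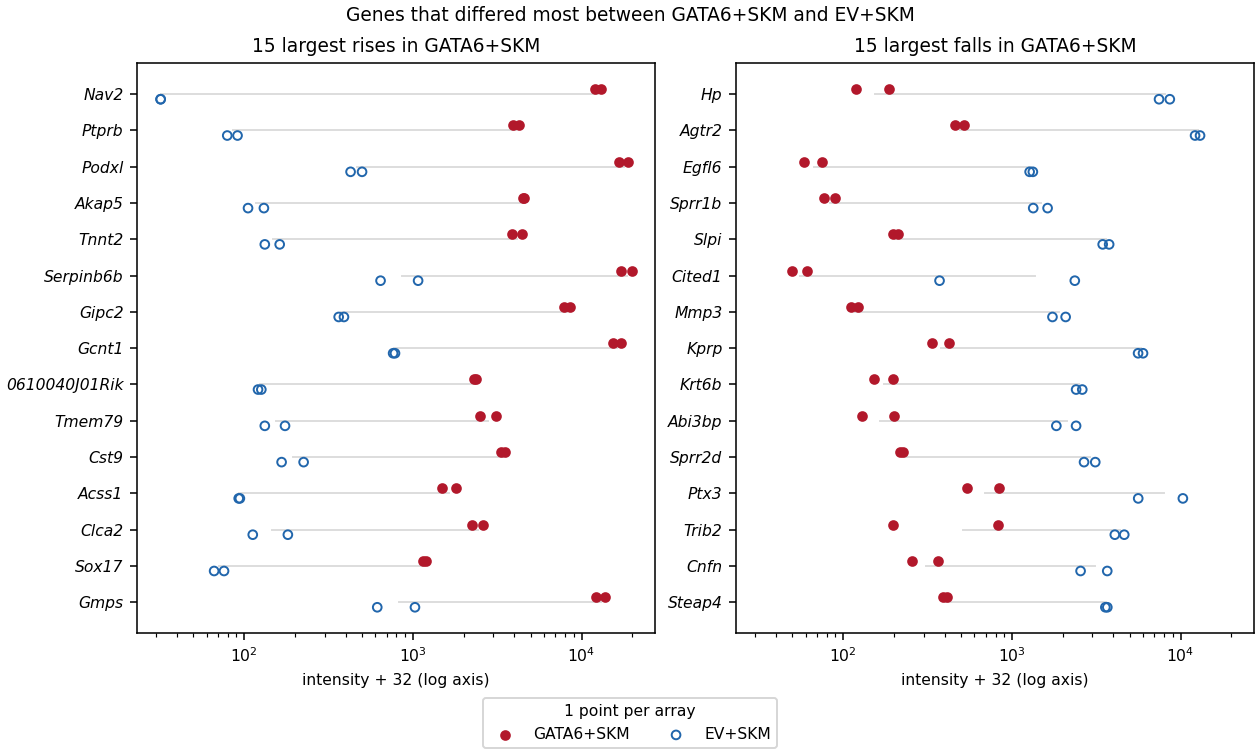
Each row is a gene, with 1 point per array on a log axis of intensity + 32, GATA6+SKM filled and EV+SKM open. The left panel holds the 15 largest rises and the right panel the 15 largest falls, chosen among genes whose arrays did not overlap. The widest gap inside a group is seen for Cited1 in EV+SKM and for Trib2 in GATA6+SKM.

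Gene lists for the lineages and programmes of interest are described next by counts, to be read against 17.3% of all genes higher and 17.6% lower, and by medians beside the median of -0.03 over all genes. Among factors of the GATA family and their cofactors, 6 of 8 were measured. Zfpm1 (FOG1), a cofactor that binds GATA factors, rose by 3.54 ± 0.13 on the log2 scale (SE, limma adjusted p = 1.07e-12), with 7527 and 6669 in GATA6+SKM and 627 and 539 in EV+SKM. Gata3 rose by 1.10, with 330 and 424 in GATA6+SKM and 179 and 138 in EV+SKM. The Gata2, Gata4 and Gata6 probes and the cofactor Zfpm2 were lower.

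Endoderm genes did not move as a group. Of 7 measured endoderm regulators, Sox17 and the forkhead factor Foxa3 (1.38) rose, and Prdm1 (-1.14) and Klf6 (-0.71) fell, with a median of -0.25. The Foxa3 probe was dim and its replicates spread, with 188 and 363 in GATA6+SKM and 62.2 and 104 in EV+SKM. None of the 9 measured genes of the primitive streak and mesendoderm passed the test, and their median was -0.15. Of 9 measured visceral endoderm and liver genes, Ahsg (fetuin-A, a liver plasma protein) rose by 2.63 and Apoe by 0.41, and Vtn fell by 0.56. Among 15 basement membrane and parietal endoderm genes, the laminin chains Lama5 (1.86) and Lamc1 (0.66) and the linker Nid2 (0.58) rose, and Pdgfra, Fst, Thbd and Lamb1 fell. Most of the early endoderm regulators on the list, 9 of 16, had no value here.

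The list of cardiac genes had 23 members, of which 10 were measured, and 4 of them rose and none fell, with a median of 0.26. The risers were the 3 troponin subunits and the stress-responsive cofactor Ankrd1 (0.95). Tnni1, slow skeletal troponin I, which is also the fetal heart form, read 9304 and 11501 in GATA6+SKM against 770 and 938 in EV+SKM, a log2 change of 3.56 ± 0.13 (SE, limma adjusted p = 1.69e-12). Tnnc1, troponin C of heart and slow muscle, read 1895 and 2077 in GATA6+SKM against 227 and 299 in EV+SKM, and both GATA6+SKM arrays were again the higher. The transcription factors Tbx5, Hand2 and Mef2c had log2 differences between -0.07 and 0.29 and did not pass, nor did the natriuretic peptide gene Nppb at -0.23. Of the 3 measured genes on a skeletal muscle list, 2 fell and none rose. Of 5 defining skeletal muscle markers, the 2 measured were Des and Acta1. Their sum was higher with GATA6, at 1321 and 1526 in GATA6+SKM and 998 and 1143 in EV+SKM. Acta1 differed by -0.39 and did not pass, so the higher sum was that of Des.

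Interferon response genes rose together. Of 28 listed genes 23 were measured, and 18 of these rose and none fell, with a median of 1.31, and 15 rose at least 2-fold. Irf7, the factor that amplifies type I interferon, read 15930 and 16686 in GATA6+SKM, against 1883 and 2565 in EV+SKM, a log2 change of 2.87 ± 0.13 (SE, limma adjusted p = 1.31e-11). The antiviral protein Rsad2 (viperin) read 5405 and 5350 in GATA6+SKM and 809 and 798 in EV+SKM, and Ifit1 read 22147 and 19102 in GATA6+SKM and 3614 and 3064 in EV+SKM. All 3 genes were several-fold brighter on both GATA6+SKM arrays. Those that did not pass were Ifit2, Psmb9, Xaf1, Gbp2 and Psmb8, with differences between -0.19 and 0.58. Of 8 myeloid markers 4 were measured, with Ptprc and Itgam below the lower quartile of all genes. Their summed intensity was 1408 and 1077 in GATA6+SKM and 1174 and 1025 in EV+SKM, and their part in the interferon values was not tested.

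Inflammatory genes moved the other way. Of 17 measured genes 12 fell and none rose, with a median of -0.95. The chemokine Ccl2 read 9270 and 8082 in GATA6+SKM against 39032 and 31610 in EV+SKM, and the siderophore-binding protein Lcn2 read 129 and 149 in GATA6+SKM against 1225 and 1736 in EV+SKM. Their log2 changes were -2.02 and -3.12. Cxcl1 fell by 1.88, Cxcl2 by 2.06 and the protease Mmp9 by 2.76. Tnfaip3, Icam1, Il11, Il1b and Lif did not pass, with differences between -0.40 and 0.10.

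Fibroblast genes were lower. Of 29 listed genes 25 were measured, 20 fell and 1 rose, with a median of -0.82. Pdgfra, the PDGF receptor of mesenchyme, read 1545 and 1793 in GATA6+SKM, against 12369 and 10321 in EV+SKM, a log2 change of -2.74 ± 0.11 (SE, limma adjusted p = 3.86e-12). The collagen gene Col3a1 read 941 and 808 in GATA6+SKM and 3752 and 3579 in EV+SKM, and the surface protease Fap read 285 and 342 in GATA6+SKM and 1676 and 1195 in EV+SKM. These arrays did not overlap, and the log2 changes were -2.03 and -2.07. Dpt, Snai2 and Pdgfrb fell by 2.61, 1.46 and 1.39. The gene that rose was the N-cadherin gene Cdh2, with 1931 and 2321 in GATA6+SKM and 424 and 441 in EV+SKM, and Vim, Dcn and Snai1 were among the 4 that did not pass. Of 11 defining fibroblast markers 9 were measured, and all lay above the lower quartile of genes in these 4 arrays. Their sum was 125903 and 131185 in GATA6+SKM, 141620 and 168458 in EV+SKM, and 156772 and 182522 in MEF1 EV. Such a sum is set by its brightest genes, and Col3a1 and Fap, at the values above, were a small part of it. In such bulk RNA, fewer cells of a type and less RNA per cell cannot be told apart.

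Epidermal genes were mostly lower. Of 15 measured cornified layer genes 9 fell and none rose, with a median of -1.46. Besides Sprr1b and Cnfn, the main envelope protein Lor read 781 and 506 in GATA6+SKM and 5250 and 5519 in EV+SKM, and Crct1, Lce1b and Lce3a fell by 2.68, 2.76 and 2.20. Of 14 basal keratinocyte genes 8 fell and 3 rose, with a median of -0.61. Besides Krt6b, the stress keratins Krt16, Krt6a and Krt17 fell by 2.63, 1.89 and 1.15, and the junction genes Dsp (1.04), Dst (0.67) and Perp (0.56) rose. Krt14, the main basal keratin, read 46950 and 51161 in GATA6+SKM and 51161 and 46556 in EV+SKM, among the brightest probes of the array. Of 7 keratinocyte markers 4 were measured, with Krt5 low. They summed to 49384 and 53222 in GATA6+SKM, 58384 and 53902 in EV+SKM, and 3770 and 4179 in MEF1 EV. In GATA6+SKM and EV+SKM most of each sum was the Krt14 value given above.

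Keratins of simple epithelium were higher. Krt8 read 29280 and 37539 in GATA6+SKM against 5807 and 10309 in EV+SKM, a log2 change of 2.09 ± 0.21 (SE, limma adjusted p = 3.73e-07). Krt19 and the claudin Cldn6 rose by 1.54 and 1.75. The list as a whole did not shift, since of 12 measured genes 3 rose and 2 fell, with a median of -0.14.

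Endothelial genes were split. Of 11 measured genes, Ptprb, Podxl and the adhesion molecule Esam (0.86) rose and the VEGF receptor Flt1 (-1.36) fell. The defining markers Pecam1, Cdh5 and Kdr were below the lower quartile of genes and had differences between -0.09 and 0.18. The sum of the 4 measured of 6 endothelial markers was 716 and 793 in GATA6+SKM and 725 and 612 in EV+SKM.

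**Figure D3:**
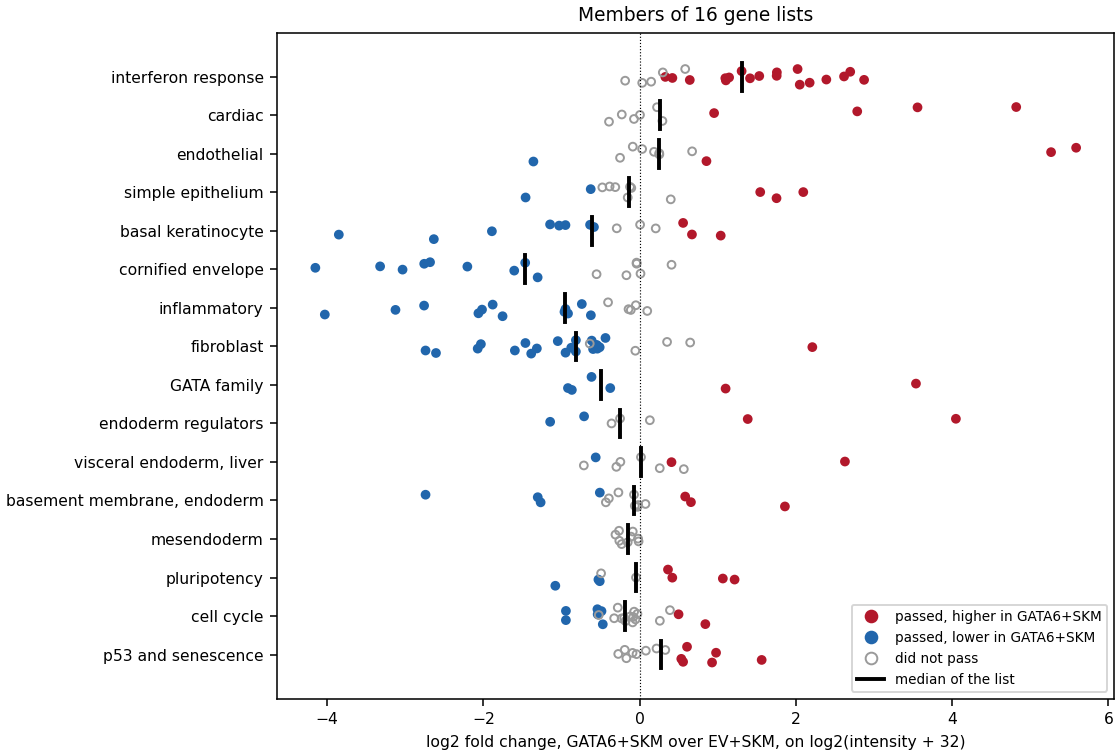
Each row is a gene list, each point a measured gene, coloured by whether it passed the test, and each bar the list's median, on an axis of log2 fold change of GATA6+SKM over EV+SKM. Interferon genes lie mostly to the right of 0, with a median of 1.31, and cornified layer, inflammatory and fibroblast genes to the left, with medians of -1.46, -0.95 and -0.82.

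The remaining lists are given in brief. Their medians were 0.27 for p53 response, -0.19 for cell cycle, -0.05 for pluripotency and -0.55 for cholesterol synthesis genes. Those of glycolysis, imprinted, TGF-beta and actin, and homeobox genes were 0.14, -0.31, -0.28 and -0.24. Of 14 measured p53 response genes 6 rose and none fell, with Trp53inp1 (1.56), the death receptor Tnfrsf10b (0.98) and Pmaip1 (0.93) ahead. The cyclin-dependent kinase inhibitors Cdkn2a and Cdkn2b differed by 0.22 and 0.08 and did not pass. Of 22 cell cycle genes 2 rose and 6 fell, with the G1/S cyclin Ccne1 (-0.94) and the replication factor Cdc45 (-0.94) lowest. Of 9 pluripotency genes 4 rose and 3 fell. Esrrb (1.22) and Zfp296 (1.06) rose, and Klf2 (-1.08), Pou5f1 (-0.53) and Tbx3 (-0.51) fell. The Pou5f1 probe read 84.9 and 60.7 in GATA6+SKM and 129 and 108 in EV+SKM, all dim. Of 9 cholesterol synthesis genes 5 fell and none rose, and of 11 glycolysis genes 4 rose, led by the glucose transporter Slc2a3 (2.70), and Pfkp fell. Of 13 imprinted genes 3 rose, with Phlda2 at 2.06, and 7 fell, with H19 at -1.29. Of 15 genes of TGF-beta and actin signalling 3 rose and 8 fell, and the BMP target genes Id2 and Id3 fell by 1.30 and 0.79. Of 28 Hox and limb homeobox genes 5 rose and 6 fell, and the distal genes Hoxa10 and Hoxa11 fell by 1.15 and 1.05.

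Groups with another factor added to SKM give the level of each gene when the vector is not empty. Such comparisons share the GATA6+SKM arrays with the one above, so their counts are not independent of it. Against the mean of the other 8 added factors (17 arrays), 4805 genes passed (47.5%), 1921 higher (19.0%) and 2884 lower (28.5%), and 409 were at least 2-fold higher (4.05%) and 422 at least 2-fold lower (4.17%). The GATA6+SKM arrays lay above all 17 arrays for 528 genes (5.22%) and below all of them for 654 genes (6.47%). Of the 15 largest rises against the empty vector, 13 lay above all 17, the exceptions being Nav2 and Tnnt2. Of the 15 largest falls 10 lay below all 17, and the other 5 were Cited1 and the epidermal genes Sprr1b, Kprp, Sprr2d and Cnfn.

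Sox17 was bright in GATA6+SKM and dim in every other group of the arm. It was 1125 and 1162 in GATA6+SKM, 67.7, 94.1 and 73.3 in GATA4+SKM, and between 22.3 and 74.7 in the 14 arrays of the remaining 7 factors. Akap5 was 4508 and 4445 in GATA6+SKM, 810, 903 and 753 in GATA4+SKM, and at most 124 with any other factor. Tmem79 and Cst9 followed the same order, with GATA4+SKM at 224 to 319 and the other factors lower on every array. Serpinb6b, Podxl and Zfpm1 were also highest with GATA6, while SOX7+SKM (2826 and 2754 for Podxl) came nearest after GATA4+SKM for Podxl. Ptprb read 947 and 887 in SOX7+SKM, beside 1046, 1053 and 895 in GATA4+SKM. Among genes lower than with all other factors, Fabp4, a fatty acid carrier of fat cells and macrophages, read 35.7 and 60.7 in GATA6+SKM, between 588 and 1469 with the other 8 factors, and 313 and 402 in EV+SKM.

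**Figure D4:**
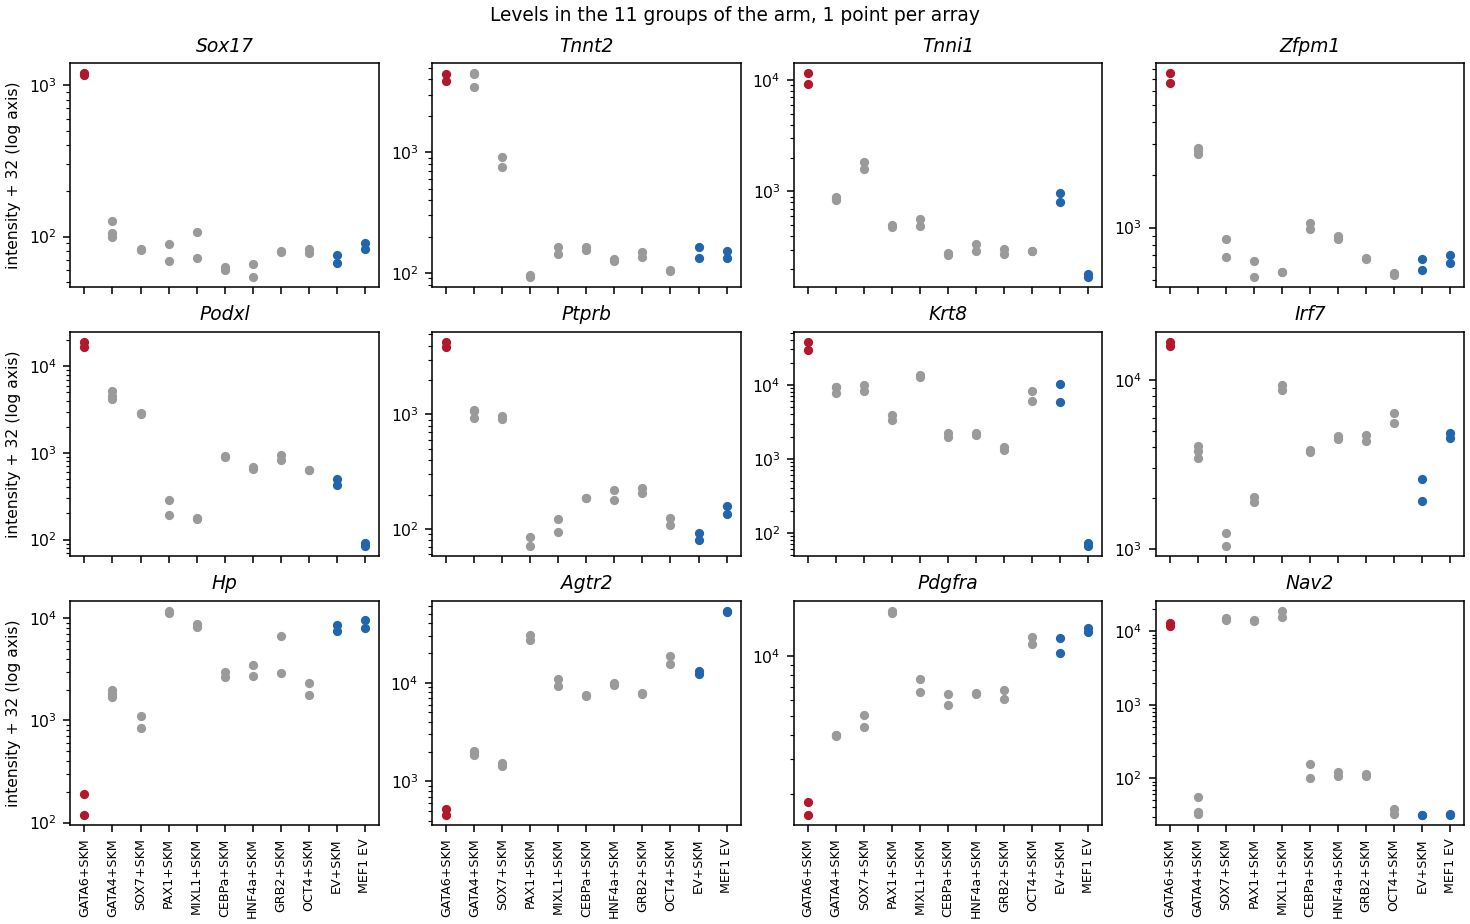
Each panel is a gene and each point an array, with intensity + 32 on a log axis and the 11 groups of the arm side by side, GATA6+SKM at the left and EV+SKM and MEF1 EV at the right. Sox17 is high in GATA6+SKM and near the floor in all other groups, Tnnt2 is as high in GATA4+SKM as in GATA6+SKM, and Nav2 is high in GATA6+SKM, SOX7+SKM, PAX1+SKM and MIXL1+SKM.

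Nav2 stood apart from the other rises in this view. Its brightest probe read at least 11969 on every array of GATA6+SKM, SOX7+SKM, PAX1+SKM and MIXL1+SKM, between 68.3 and 125 with CEBPa, HNF4a and GRB2, and at most 22.96 with GATA4 and OCT4. No array lay between these levels.

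Interferon genes were also higher than with the other factors, with 18 of 23 higher and none lower, and 10 lay above all 17 arrays, Irf7, Rsad2, Ifit1 and Cxcl10 among them. Irf7 read 15930 and 16686 in GATA6+SKM, and the nearest other group was MIXL1+SKM with 8646 and 9362. Fibroblast genes were also lowest in this group in many cases: 21 of 25 were lower than the mean of the other factors, and 11 lay below all 17 arrays, Pdgfra, Pdgfrb, Col3a1 and Fap among them. Cornified layer genes were mixed in this comparison. Of the 15 genes 5 were higher and 6 lower, and none lay below all 17 arrays. For Sprr1b, EV+SKM (1306 and 1596) and MIXL1+SKM (1675 and 1683) were the bright groups, and the other 7 added factors read between 25.2 and 344.

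GATA4 is the closest relative of GATA6 among the factors. With GATA6 against GATA4, 5872 genes passed (58.1%), 2587 higher (25.6%) and 3285 lower (32.5%), and 775 genes were at least 2-fold higher (7.67%) and 824 at least 2-fold lower (8.15%). The arrays did not overlap for 3253 genes higher (32.2%) and 3980 lower (39.4%). Tnnt2 was shared, at 4430 and 3822 in GATA6+SKM and 4384, 4466 and 3403 in GATA4+SKM, a log2 difference of 0.02 ± 0.14 (SE, limma adjusted p = 0.91). Tnni1 was not, at 9304 and 11501 in GATA6+SKM and 845, 805 and 862 in GATA4+SKM, a log2 difference of 3.58 ± 0.12 (SE, limma adjusted p = 6.51e-13). Tnnc1 lay between, with a log2 difference of 1.06. These troponin genes also read above EV+SKM in SOX7+SKM. They were at 881 and 716 for Tnnt2, 1809 and 1566 for Tnni1, and 829 and 705 for Tnnc1. Ahsg was lower with GATA6 than with GATA4, by 3.27 on the log2 scale.

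Among the largest differences from GATA4, Edn2 (endothelin 2) read 1935 and 1834 in GATA6+SKM and 146, 119 and 125 in GATA4+SKM. EV+SKM had 1941 and 1769, so its level with GATA6 was that of the empty vector cells. Ltc4s, which makes leukotriene C4, read 3541 and 4059 in GATA6+SKM, 308, 302 and 329 in GATA4+SKM and 2158 and 2010 in EV+SKM. AW112010 read 1410 and 1381 in GATA6+SKM, 77.6, 109 and 103 in GATA4+SKM and 108 and 93.6 in EV+SKM. Sostdc1, a secreted antagonist of BMP and Wnt, read 36.6 and 74.7 in GATA6+SKM and 7379.8, 8217 and 7458 in GATA4+SKM, a log2 difference of -6.49 ± 0.16 (SE, limma adjusted p = 2.29e-14). Gna14 (a G protein alpha subunit), Mfap3l and Pde6h were high with GATA4 too, and differed by -4.27, -4.08 and -3.59. In each of these the 3 GATA4+SKM arrays were the bright ones. Scd2, a fatty acid desaturase, differed by 3.48, but the GATA4+SKM arrays read 829, 31203 and 1917 and every other array of the arm was at 36648 or more. Mmut, the mitochondrial methylmalonyl-CoA mutase, read 26.5 and 14.7 in GATA6+SKM and 1040, 1063 and 976 in GATA4+SKM. It was as low in EV+SKM, at 19.4 and 28.7. This probe split the 2 arrays of OCT4+SKM, at 45.1 and 1759. It read at most 104 with SOX7, PAX1 and MIXL1, at least 1296 with CEBPa, HNF4a and GRB2, and 1366 and 1190 in MEF1 EV. A second Mmut probe read 400 and 424 in GATA6+SKM and 339 and 314 in EV+SKM.

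By list, cell cycle genes were mostly lower than with GATA4, and epidermal genes mostly higher. Of 22 cell cycle genes 17 were lower with GATA6 and 1 was higher. Of 15 cornified layer genes 10 were higher and none lower. Of 14 basal keratinocyte genes 11 were higher, Krt14 by 2.46, and 2 were lower. Interferon genes were higher in 16 and lower in 1 of 23, and fibroblast genes were higher in 5 and lower in 12 of 25. Of 9 mesendoderm genes 5 were higher and none lower.

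OCT4 is the factor of the usual cocktail. Against OCT4+SKM 3683 genes passed (36.4%), 1833 higher (18.1%) and 1850 lower (18.3%), with 492 at least 2-fold higher (4.87%) and 472 at least 2-fold lower (4.67%). The arrays did not overlap for 3328 genes higher (32.9%) and 3331 lower (33.0%). Gmps read 12174 and 13812 in GATA6+SKM and 160 and 143 in OCT4+SKM, and Ildr2, a membrane protein of tricellular junctions, read 6925 and 7702 in GATA6+SKM and 183 and 166 in OCT4+SKM. Tnni1, Tnnt2 and Akap5 also differed by more than 5 on the log2 scale. The largest falls were genes bright in OCT4+SKM. Nefm, a neurofilament subunit, read 125 and 149 in GATA6+SKM and 14966 and 13424 in OCT4+SKM, a log2 difference of -6.39 ± 0.14 (SE, limma adjusted p = 2.52e-15). Mgarp, a mitochondrial protein, read 436 and 399 in GATA6+SKM and 28720.2 and 31405 in OCT4+SKM. Rbfox3, the neuronal splicing factor NeuN, read 193 and 101 in GATA6+SKM and 5396 and 6132 in OCT4+SKM. All 3 were far brighter in OCT4+SKM than in EV+SKM too, where they read 362 and 429, 881 and 787, and 159 and 155. The claudin gene Cldn11 and the LIM-domain cofactor gene Ldb2 differed by -5.40 and -5.63.

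**Figure D5:**
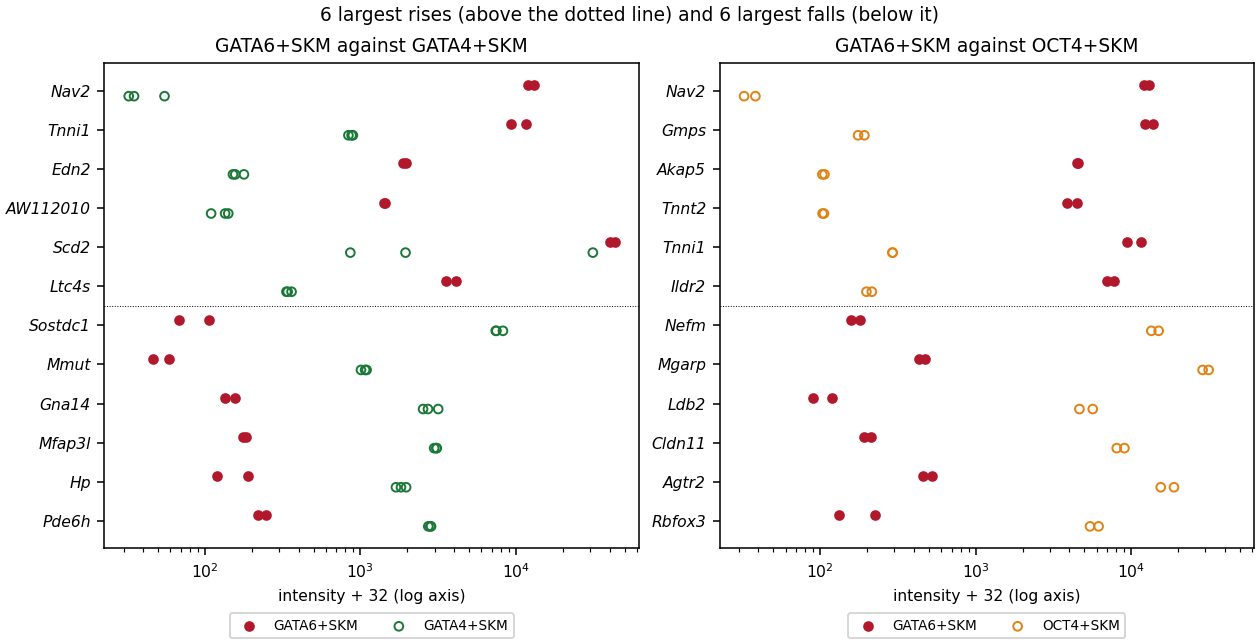
Each row is a gene and each point an array on a log axis of intensity + 32, GATA6+SKM filled and the other factor open. The left panel sets GATA6+SKM against GATA4+SKM (3 arrays) and the right panel against OCT4+SKM (2 arrays), with the 6 largest rises above the dotted line and the 6 largest falls below it. The genes were chosen among those whose arrays did not overlap, and the open points of Scd2 are spread from 829 to 31203 before the added 32.

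Cells with GATA6 and SKM were last set against fibroblasts without SKM. These differ by SKM as well as GATA6. Against MEF1 EV 5380 genes passed (53.2%), 2629 higher (26.0%) and 2751 lower (27.2%), with 984 at least 2-fold higher (9.73%) and 802 at least 2-fold lower (7.93%). The arrays did not overlap for 3447 genes higher (34.1%) and 3980 lower (39.4%). Krt8 read 29280 and 37539 in GATA6+SKM and 35.3 and 40.7 in MEF1 EV, with EV+SKM between at 5807 and 10309. Upk1b, a uroplakin, read 49915 and 52845 in GATA6+SKM, 8531 and 12079 in EV+SKM, and 537 and 603 in MEF1 EV. The tetraspanin Tspan8 followed the same order, with 73.0 and 75.6 in MEF1 EV. On the other side, Agtr2 read 428 and 487 in GATA6+SKM, 12152 and 13009 in EV+SKM, and 52521 and 53248.5 in MEF1 EV. The Wnt agonist Rspo2 and the mesodermal homeobox gene Meox2 kept that order too, at 633 and 565 and at 181 and 194 in GATA6+SKM, and differed from MEF1 EV by -5.26 each. Fibroblast genes were lower than in MEF1 EV in 21 of 25 cases and higher in 2, and cornified layer genes were higher in 11 of 15 and lower in 1. Of 23 interferon genes, 12 were higher and 3 lower than in MEF1 EV.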

How the data were processed

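RNA from 4 fibroblast samples was measured on 1-colour arrays, with 45 more arrays in the series. The deposited values are linear intensities, 1 per probe and array. Scanner software is not stated in the sources used here, nor is how background was treated or arrays were scaled. The 23 arrays of this arm looked normalized together in the values (their sorted values deviated by a median of 0.645 percent), so the fit used them alone, with 14562 probes. Array medians lay between 400.8 and 416.1 intensity units. Precision is limited by 2 arrays per group. Of 19426 probes, 15539 carry 1 gene symbol and 3887 none; 13971 symbols were current and 1538 were updated from synonyms. For the 919 genes with several probes the brightest over the arm was used, leaving 10108 genes.

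Negative intensities (5 values) were set to 0, 32 was added and log2 taken. limma 3.58.1 (R 4.3.3; lmFit, eBayes with trend) fitted 1 mean per group over the 23 arrays without a block, and p-values were adjusted by Benjamini-Hochberg over all genes. Data were simulated for 10108 genes over all 23 arrays and fitted together, with independent normal noise of 1 spread per gene in every group. There the comparison of 2 against 2 arrays recovered 28.8, 80 and 98.5 percent of changes of 0.5, 1 and 2 log2 units. It made a mean of 6.4 false calls, with only a small part of the genes given a change. The real groups differed in spread, and 34.9% of genes passed in the real comparison. These rates and the count of false calls thus may not hold for GATA6+SKM against EV+SKM. No 2 arrays held identical values.

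The named genes were the 15 largest rises and 15 largest falls against EV+SKM and the 6 each way in the other comparisons, among genes past the threshold whose arrays did not overlap and whose brighter group lay above the median gene, with up to 6 members of each list by size of change. Further list members were named after their values were seen. The comparison, members and lists were chosen with earlier results of these data known. Alternatives covered the offset, a filter on dim probes, quantile normalization, the probe rule, the arrays fitted, the intensity trend, a replicate block and leaving out each array.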

Additional observations from a re-analysis of the deposited data

Results flagged for a closer look

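Probes without a single gene name stood outside the gene comparison. Of 3451 such probes with a value in the arm, 224 were higher and 306 lower in GATA6+SKM than in EV+SKM by the same limma test, with log2 changes between -4.34 and 7.90. These are smaller shares than the 17.3% of named genes that were higher and the 17.6% that were lower. What these probes measure was not analysed here.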

How the results depend on the processing

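The count of genes past the threshold against EV+SKM was 3528, and it was 2214 fitted over all 49 arrays (1031 of them lower) and 1662 fitted over the 4 arrays alone (819 higher, 843 lower). Leaving out 1 array at a time, where the lone array left is assumed to vary like the other groups, gave 2248 to 3457 genes, 1047 to 1808 higher and 1170 to 1758 lower. The lowest total came without GATA6+SKM replicate 2, and without EV+SKM replicate 1 it was 2334 (1164 higher). Against OCT4+SKM the fit over all 49 arrays gave 2326 genes, against 3683. In the comparison with EV+SKM, changes of sign were counted only for genes named there, factor genes and list members that passed. Among these Nr0b1 was the 1 to change sign, at -0.007 with all probes of a gene averaged (limma adjusted p = 0.975). With the other settings Nr0b1 lay between 0.320 and 0.407. Its call (adjusted p = 0.0261) was also lost over all 49 arrays, over the arrays alone, without either GATA6+SKM array and without EV+SKM replicate 1, with adjusted p between 0.0654 and 0.143. The causes were not tested. With the other settings all counts over all genes stayed within 1.5 times. Over all settings the falls on the cholesterol, cell cycle and imprinted lists ranged from 2 to 5, 2 to 7 and 3 to 7 genes.

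With the replicate number as a block 3400 genes passed, 1667 higher and 1733 lower, and against GATA4+SKM and OCT4+SKM 5513 and 3546. The deviations of same-numbered arrays of GATA6+SKM and EV+SKM correlated at 0.413, over 2 pairs that share only a number. Of 369 genes, 320 kept their side of the threshold over all 49 arrays and 312 over the arrays alone. The group means are the same in these fits, so the direction could not change. No measure of background was used, so dim genes have no limit of detection here.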

Other observations

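Some genes outside the lists were looked at after their values had been seen, and are given as values. The mesothelial surface protein gene Msln read 31055 and 27445 in GATA6+SKM and 13299 and 10528 in EV+SKM, a log2 change of 1.30, and the mesothelial and kidney factor Wt1 read 627 and 668 in GATA6+SKM and 115 and 127 in EV+SKM, a log2 change of 2.15. The adhesion receptor Cxadr read 9641 and 8946 in GATA6+SKM and 668 and 628 in EV+SKM, and it was as bright in GATA4+SKM, at 11309, 13556 and 10465. The tight junction gene F11r rose by 3.06.

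The retinoid enzyme Aldh1a1 read 23243 and 18443 in GATA6+SKM and 1905 and 1700 in EV+SKM, a log2 change of 3.50, while the retinoic acid binding proteins Crabp1 and Crabp2 fell by 1.32 and 1.47. Among secreted Wnt pathway genes Wnt2 read 3579 and 3477 in GATA6+SKM and 350 and 252 in EV+SKM. Rspo2 read 633 and 565 in GATA6+SKM and 5880 and 5288 in EV+SKM, and Rspo3 rose by 0.80. With Hp, the acute-phase and complement genes Cp, C3 and Cfb fell by 2.47, 2.53 and 1.27, and with Agtr2 the type 1 receptor gene Agtr1a fell by 2.57.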
